A study of Mus musculus with 9 samples.

Results

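Autophagy delivers parts of the cell to the lysosome for breakdown, and 10 mouse genes of this route were followed here in RNA from cells labelled long-term hematopoietic stem cells (LT-HSCs). They were taken by gene symbol from the 56262 rows of each count table and sorted by role. Starters and adaptors are Ulk1, Becn1, Map1lc3b, Gabarapl1 and Sqstm1 (5 genes), the regulator is Tfeb, and the lysosomal genes are Lamp1, Lamp2, Hexa and Ctsd (4 genes). Each of the 10 symbols had 1 row, and all 10 were among the 16595 genes that passed the filter on low counts.

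The mice were C57BL/6 wild type, in 3 groups with 3 libraries each. Control mice were untreated, per the labels. The other groups received 5-fluorouracil (5-FU, a cytotoxic drug that kills dividing cells) at 250 mg per kg body weight, followed by PBS (5-FU+Saline) or by an agent that the labels call FMT without spelling it out (5-FU+FMT). FMT was given into a vein at 5 mg per kg after days 1, 4 and 7, and cells of 5-FU+Saline and 5-FU+FMT were taken on day 8. No collection day is given for Control. Cells were gated on Sca1, c-Kit and CD150 after exclusion of lineage-marked cells, with a further marker spelled "C48-" in the labels. The labels give neither age nor sex, and they do not say whether a library came from 1 mouse or several, so p-values measure the spread between these libraries, which may be technical.

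In autophagy, a kinase complex built on ULK1 starts the process, a lipid kinase complex that holds beclin 1 marks the membrane, and proteins of the ATG8 family (the LC3 and GABARAP proteins) are fixed to that membrane and bind adaptors such as p62, which carry the cargo. The closed vesicle fuses with a lysosome, whose membrane is lined by LAMP proteins and whose acid interior holds proteases and glycan-cutting enzymes. TFEB is a transcription factor that switches on many lysosomal and autophagy genes when it enters the nucleus. Hematopoietic stem cells are known to depend on autophagy for their upkeep.

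The libraries held 11098031 to 19270976 counts. Markers of several cell types moved with the groups, and their part in the results below was not tested. Summed CPM (counts scaled to library size, here with TMM factors) of 9 LT-HSC markers lay at 1782 to 1793 in Control, 1166 to 1177 in 5-FU+Saline and 1415 to 1464 in 5-FU+FMT. After 5-FU and saline 3 of the 9 were higher and 4 lower. Most of the sum in each group was held by Kit and Hlf, both lower after 5-FU and saline. Hlf stood at 565, 243 and 394 CPM in Control, 5-FU+Saline and 5-FU+FMT. Among genes of the gate, Slamf1, which encodes CD150, stood at 8.35, 34.5 and 24.4 CPM in the same order of groups, Kit, which encodes c-Kit, at 754, 410.5 and 537 CPM, and Ly6a, of the Sca1 antigen, at 97.2, 118 and 108 CPM. Neutrophil and precursor markers (9 genes) summed to 2271 to 2308, 156 to 173 and 867 to 987 CPM, but 4 were higher and 4 lower after 5-FU and saline. The early granule gene Mpo stood at 1277, 29.9 and 469 CPM, and the late granule genes Ltf and Ngp at 0.2004 and 0.865 CPM in Control, 8.86 and 8.45 CPM in 5-FU+Saline and 4.94 and 4.55 CPM in 5-FU+FMT. B cell markers (8 genes) summed to 52.7 to 53.3, 852 to 870 and 399.9 to 437 CPM, and erythroid markers (8 genes) to 1245 to 1271, 436 to 447 and 762 to 800.01 CPM. Plasma cell markers (7 genes) summed to 3004 to 3109, 1743 to 1789 and 2083 to 2128 CPM, and megakaryocyte markers (6 genes) to 140.5 to 152, 117 to 121 and 123 to 137 CPM. Jchain alone held most of the plasma cell sum (2694, 1497 and 1820 CPM). Of the 7 plasma cell markers 2 were higher and 5 lower after 5-FU and saline, and 3 were higher and 2 lower with FMT than with saline. RNA of sex-linked genes differed too, with Xist at 0.870, 1201 and 682 CPM and the Y-linked Ddx3y at 168, 38.9 and 100.04 CPM in Control, 5-FU+Saline and 5-FU+FMT. The SDs within these groups were 0.421, 20.2 and 19.8 CPM for Xist and 4.23, 2.58 and 2.28 CPM for Ddx3y. Both RNAs were present in 5-FU+Saline and 5-FU+FMT. In these libraries a difference in sex cannot be told apart from a difference in treatment.

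After 5-FU and saline, all 5 starters and adaptors were lower than in Control, while Tfeb, Lamp1 and Hexa were higher, Ctsd was slightly lower and Lamp2 did not pass the test. That made 3 members higher and 6 lower of 10, at an adjusted p under 0.05 in edgeR's quasi-likelihood test with Benjamini-Hochberg adjustment, which is the test behind every adjusted p here unless another tool is named. Among all 16595 genes tested 32.8% were higher and 32.7% lower, so a call is common in this comparison. The libraries of the groups did not overlap for 9 of the 10 members, against 67.8% of all genes. The median log2 fold change was -0.69 for the starters and adaptors and 0.22 for the lysosomal genes, against -0.021 over all genes. In bulk RNA, fewer cells of a type and less RNA per cell cannot be told apart.

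With FMT in place of saline after 5-FU, 4 starters and adaptors were higher and none lower, and 2 lysosomal genes (Lamp1 and Hexa) were lower and none higher. Over all genes 17.7% were higher and 19.2% lower. The groups did not overlap for 7 of 10 members, against 46.3% of all genes. Median log2 fold changes were 0.35 for the starters and adaptors and -0.09 for the lysosomal genes, beside 0.0098 over all genes. This comparison shares the 5-FU+Saline libraries with the one before it, so the opposite signs are not independent of each other.

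Between 5-FU+FMT and Control, 4 starters and adaptors were lower, 3 lysosomal genes were higher and 1 was lower, and Becn1 and Tfeb were not called. Of all genes 25.0% were higher and 21.6% lower, and 52.7% did not overlap, against 8 of the 10 members. Median log2 fold changes were -0.34 for the starters and adaptors and 0.15 for the lysosomal genes, beside -0.0066 over all genes.

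**Figure D1:**
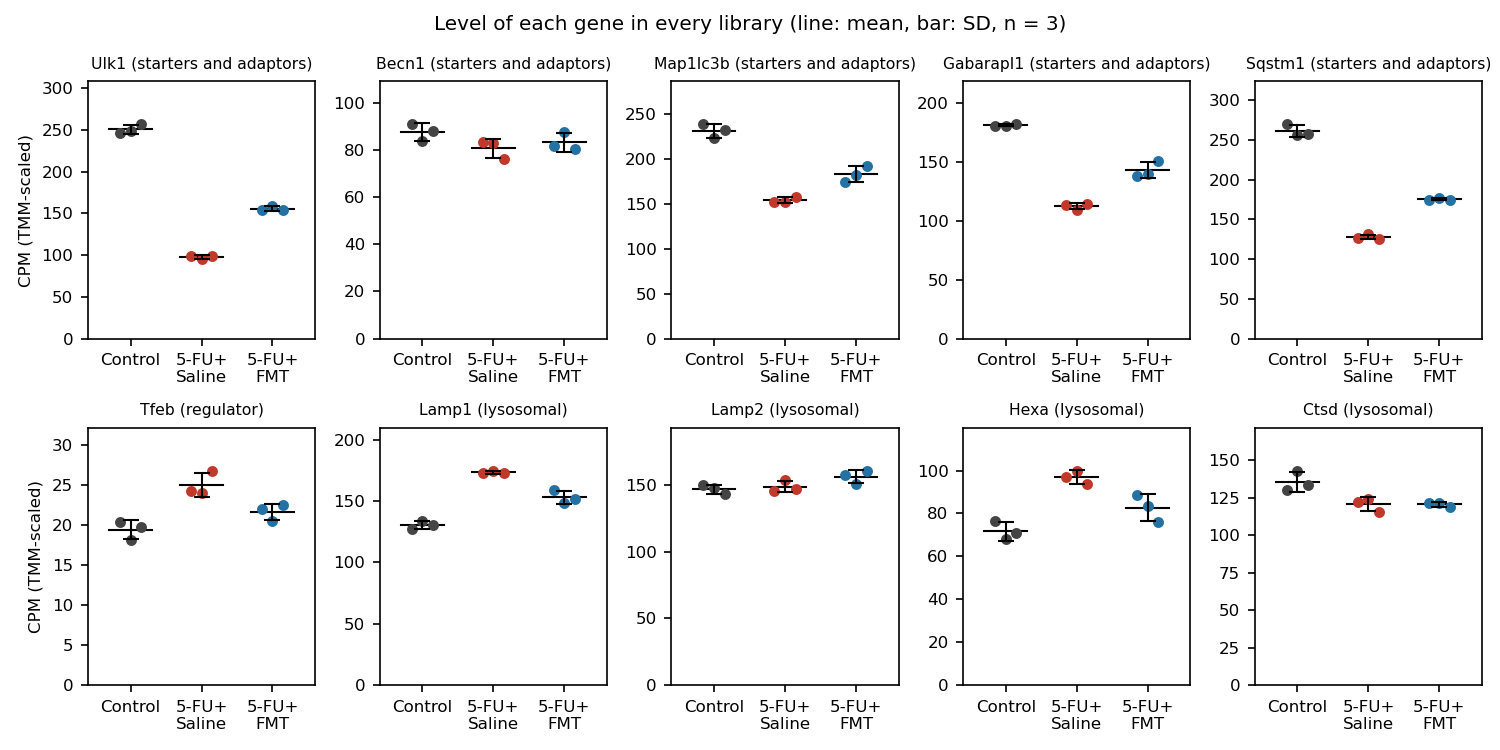
Level of each gene in CPM (y axis, from 0, TMM-scaled) in the 3 libraries of each group (x axis), with a line at the mean and a bar for the SD. Ulk1, Sqstm1, Map1lc3b and Gabarapl1 are highest in Control and lowest in 5-FU+Saline with no overlap between groups, while Lamp1 runs the other way.

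Ulk1 encodes the kinase that starts autophagosome formation (ENSMUSG00000029512.11, mm10 chromosome 5, 110784488 to 110810097, minus strand). Its level was 246, 249 and 257 CPM in the Control libraries, 99.2, 95.1 and 98.9 CPM in 5-FU+Saline and 154, 159 and 154 CPM in 5-FU+FMT. The 3 groups were wholly apart, with 5-FU+Saline lowest and 5-FU+FMT in the middle. Ulk1 fell 2.57-fold after 5-FU and saline (log2 fold change -1.36, SE 0.036, adjusted p = 4.81e-47), a larger absolute change than that of 88.8% of all genes tested. It was 1.60-fold higher with FMT than with saline (log2 fold change 0.67, SE 0.038, adjusted p = 3.28e-26). Against Control it was still 1.61-fold lower with FMT (adjusted p = 1e-28). No other gene shares its exons.

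Becn1, which encodes beclin 1 of the lipid kinase complex (ENSMUSG00000035086.13, chromosome 11, 101285952 to 101302286, minus strand), barely moved. Its libraries read 90.8, 83.6 and 88.2 CPM in Control, 83.2, 83.0 and 76.0 CPM in 5-FU+Saline and 81.6, 87.8 and 80.5 CPM in 5-FU+FMT. The lowest Control library lay just above the highest 5-FU+Saline library, and the 5-FU+FMT libraries overlapped both groups. The fall after 5-FU and saline was 1.09-fold (log2 fold change -0.12, SE 0.050, adjusted p = 0.026), smaller than that of most genes. That call was lost without Control replicate 1 (adjusted p = 0.123), without Control replicate 3 (0.0687), without 5-FU+Saline replicate 3 (0.251), with DESeq2 (0.0774) and with no filter on low counts (0.24). With FMT it differed neither from saline (log2 fold change 0.048, SE 0.050, adjusted p = 0.488) nor from Control (-0.075, SE 0.050, adjusted p = 0.225) at the threshold. Of its 7065 exonic bases 43.9% are shared with Cntd1 on the opposite strand. The counting used neither strand nor an option for overlapping genes, so reads there counted for neither gene. This holds for the other members with shared bases too, and levels given for the genes that overlap them come from unshared bases only. Cntd1 itself stood at 2.97, 1.66 and 2.22 CPM in Control, 5-FU+Saline and 5-FU+FMT.

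The ATG8 genes Map1lc3b and Gabarapl1 moved alike. Map1lc3b, which encodes LC3B (ENSMUSG00000031812.16, chromosome 8, 121590361 to 121598760, plus strand), gave 238, 223 and 232 CPM in Control, 151, 152 and 157 CPM in 5-FU+Saline and 174, 182 and 192 CPM in 5-FU+FMT. No library of one group reached into another. It fell 1.50-fold after 5-FU and saline (log2 fold change -0.59, SE 0.035, adjusted p = 3.2e-25) and was 1.19-fold higher with FMT than with saline (0.25, SE 0.036, adjusted p = 2.77e-08). Gabarapl1, which encodes a member of the GABARAP branch (ENSMUSG00000030161.8, chromosome 6, 129533160 to 129542346, plus strand), gave 181, 181 and 182 CPM in Control, 113, 109.5 and 114 CPM in 5-FU+Saline and 138, 139.9 and 151 CPM in 5-FU+FMT. Here too the groups were apart, and the Control libraries lay within a narrow range. It fell 1.61-fold after 5-FU and saline (log2 fold change -0.69, SE 0.038, adjusted p = 4.72e-27) and was 1.27-fold higher with FMT (0.35, SE 0.039, adjusted p = 9.16e-12). With FMT both stayed 1.27-fold below Control, with adjusted p = 1.68e-13 for Map1lc3b and 2.61e-12 for Gabarapl1. Gabarapl1 shares 28.3% of its exonic bases with 1700101I11Rik on the opposite strand, which stood at 2.58, 0.521 and 1.05 CPM in the 3 groups.

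Sqstm1 encodes p62, the adaptor that binds ubiquitin-tagged cargo and the ATG8 proteins and is itself broken down with its cargo (ENSMUSG00000015837.15, chromosome 11, 50199366 to 50210827, minus strand). Its libraries gave 269.7, 256 and 257 CPM in Control, 127, 131 and 126 CPM in 5-FU+Saline and 174, 178 and 175 CPM in 5-FU+FMT. The groups did not overlap, and the order was that of Ulk1. The fall after 5-FU and saline was 2.04-fold (log2 fold change -1.03, SE 0.035, adjusted p = 1.39e-40), larger than the change of 82.4% of all genes. With FMT it was 1.37-fold higher than with saline (0.46, SE 0.036, adjusted p = 1.18e-18) and 1.49-fold lower than in Control (adjusted p = 5.39e-25). Mrnip, which covers 17.3% of its exonic bases from the opposite strand, stood at 4.80, 5.61 and 4.82 CPM.

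Immediate early genes, which rise within minutes of a stimulus such as cell handling, followed the same order as the starters and adaptors. The sum over 10 of them was 24372 to 24502 CPM in Control, 3563 to 3593 CPM in 5-FU+Saline and 10392 to 11369 CPM in 5-FU+FMT. Their part in the levels of Ulk1 and Sqstm1 was not tested.

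Tfeb (ENSMUSG00000023990.18, chromosome 17, 47737030 to 47792419, plus strand) had the lowest level per length of the 10 genes in every group. Its libraries gave 20.4, 18.2 and 19.7 CPM in Control, 24.3, 24.1 and 26.8 CPM in 5-FU+Saline and 22.0, 20.5 and 22.5 CPM in 5-FU+FMT. The 5-FU+Saline libraries lay above all others, and the 5-FU+FMT libraries lay just above those of Control. Tfeb rose 1.29-fold after 5-FU and saline (log2 fold change 0.36, SE 0.091, adjusted p = 0.000319). The difference between FMT and saline, a log2 fold change of -0.21 (SE 0.089), missed the threshold (adjusted p = 0.0515). It passed with RLE scaling (0.035), with limma-voom (0.0435), with the libraries of both groups alone (0.0479) and without Control replicate 2 (0.0475). Against Control the value with FMT was 0.15 (SE 0.094, adjusted p = 0.188). RNA level says nothing of where the TFEB protein was.

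The promoter letters of the lysosomal genes are shown because TFEB reads a short element, called CLEAR, whose core is the E-box CACGTG, which reads the same on both strands. In the RefSeq promoter table of GRCm38.p6, the assembly that mm10 names, 9 of the 10 members had a window from 250 bases before to 50 after a gene start, Tfeb with 3 windows for its alternative starts, and Becn1 had none. Lamp1 held the core 4 times and Ctsd 2 times, and these letters were in no window of the other 7 genes. The sequences below run 5′ to 3′ along each gene's strand, with the core in capitals.
Lamp1, last 100 bases before the start, chr8:13159061-13159160, plus strand: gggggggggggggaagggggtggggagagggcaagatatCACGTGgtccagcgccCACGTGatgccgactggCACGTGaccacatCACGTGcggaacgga
Ctsd, upstream copy, chr7:142388048-142388077, minus strand: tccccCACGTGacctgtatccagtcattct
Ctsd, copy nearer the RefSeq start, chr7:142387908-142387937, minus strand: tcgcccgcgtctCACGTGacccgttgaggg

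The 4 copies in Lamp1 began 61, 45, 28 and 15 bases before the start, and those in Ctsd 245 and 98 bases before it. The second Ctsd stretch lies within an exon of Ctsd in the count tables' annotation, since that annotation starts the gene further upstream than the RefSeq window does. Of 32851 promoter windows 7.15% held CACGTG at least once, 0.594% held 2 or more copies and 0.0244% (8 windows) held 4 or more. The other letters searched, on both strands, were TCATGTGA (in 0.986% of all windows), the AP-1 letters TGANTCA (7.81%), the CRE letters TGACGTCA (1.79%) and the FOXO letters TGTTTAC (3.65%), and no window of the 9 genes held any of them. A match is a string of letters and no measure of binding.

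Lamp1 encodes a main protein of the lysosomal membrane (ENSMUSG00000031447.7, chromosome 8, 13159161 to 13175338, plus strand). It gave 127, 133 and 130.1 CPM in Control, 173, 175 and 173 CPM in 5-FU+Saline and 159, 149 and 151 CPM in 5-FU+FMT. The 3 groups were apart in the order 5-FU+Saline, 5-FU+FMT, Control, the reverse of Ulk1 and Sqstm1. Lamp1 rose 1.33-fold after 5-FU and saline (log2 fold change 0.41, SE 0.037, adjusted p = 1.99e-16), an absolute change larger than that of 49.4% of all genes and so close to the middle. With FMT it was 1.13-fold lower than with saline (-0.18, SE 0.037, adjusted p = 3.38e-05) and 1.18-fold higher than in Control (adjusted p = 2.92e-07). Grtp1, on the opposite strand over 9.31% of its exonic bases, stood at 1.35, 3.75 and 2.39 CPM.

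Hexa encodes the alpha subunit of beta-hexosaminidase, which trims gangliosides (ENSMUSG00000025232.8, chromosome 9, 59539540 to 59565109, plus strand). Its libraries gave 76.5, 67.9 and 70.8 CPM in Control, 97.2, 99.9 and 93.7 CPM in 5-FU+Saline and 88.8, 83.6 and 76.0 CPM in 5-FU+FMT. The 5-FU+Saline libraries were above all others, and the lowest 5-FU+FMT library fell below the highest Control library. Hexa rose 1.35-fold after 5-FU and saline (log2 fold change 0.43, SE 0.051, adjusted p = 1.39e-11) and was 1.17-fold lower with FMT than with saline (-0.22, SE 0.050, adjusted p = 0.000181). Against Control it was 1.15-fold higher with FMT (adjusted p = 0.000753), although the libraries overlapped.

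Ctsd, which encodes the aspartic protease cathepsin D (ENSMUSG00000007891.16, chromosome 7, 142375911 to 142388038, minus strand), did not follow Lamp1 and Hexa. It gave 130.1, 143 and 133 CPM in Control, 122, 124 and 116 CPM in 5-FU+Saline and 122, 122 and 118 CPM in 5-FU+FMT. Control lay above both treated groups, which overlapped fully. Ctsd fell 1.12-fold after 5-FU and saline (log2 fold change -0.16, SE 0.041, adjusted p = 0.000317) and stood 1.12-fold below Control with FMT (-0.17, SE 0.042, adjusted p = 0.000595). Between FMT and saline the log2 fold change was -0.00065 (SE 0.041, adjusted p = 0.993). Gm49369 covers 34.4% of its exonic bases on the same strand and had 0 counts in all 9 libraries. As reads in shared bases counted for neither gene, this is no measure of Gm49369 there.

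Lamp2, the other LAMP gene and the only member on the X chromosome (ENSMUSG00000016534.15, 38401357 to 38456454, minus strand), stayed close to level. It gave 149.9, 148 and 143 CPM in Control, 146, 154 and 147 CPM in 5-FU+Saline and 158, 151 and 161 CPM in 5-FU+FMT. Control and 5-FU+Saline overlapped, and only 5-FU+FMT lay wholly above Control. The log2 fold change after 5-FU and saline was 0.019 (SE 0.038, adjusted p = 0.669), and between FMT and saline 0.073 (SE 0.037, adjusted p = 0.123). Lamp2 was 1.07-fold higher with FMT than in Control (adjusted p = 0.0407). This last call was lost with RLE scaling (0.055), upper-quartile scaling (0.607), a stricter filter (0.168) and DESeq2 (0.0869), and without Control replicate 2 (0.0584), Control replicate 3 (0.181), 5-FU+FMT replicate 1 (0.0952) or 5-FU+FMT replicate 3 (0.137). The X-linked Xist differed between the groups as given above, and its relation to Lamp2 was not tested.

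Macrophages are rich in lysosomes, so their markers stand beside the lysosomal genes. The 12 macrophage and monocyte markers summed to 153 to 161 CPM in Control, 208 to 212 CPM in 5-FU+Saline and 163 to 174 CPM in 5-FU+FMT. After 5-FU and saline 8 of the 12 were higher and 3 lower. Mrc1 went from 0.684 CPM in Control to 11.9 CPM in 5-FU+Saline and 3.74 CPM in 5-FU+FMT, and C1qa from 0.377 to 6.89 and 2.04 CPM, whereas Csf1r went from 15.3 to 4.40 and 7.80 CPM and Cd68 from 28.3 to 20.4 and 23.8 CPM. Marco had no count in Control. Stroma and endothelium markers (10 genes) summed to 162 to 169, 303 to 319 and 168 to 179 CPM, but Pecam1 and Pdgfrb, which hold most of the Control sum, fell. The other 8 were higher than in Control both with saline and with FMT, among them Cxcl12 at 2.32, 126.9 and 24.2 CPM and Sparc at 0.954, 34.1 and 8.58 CPM. The part of such cells in the levels of Lamp1 and Hexa was not tested.

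**Figure D2:**
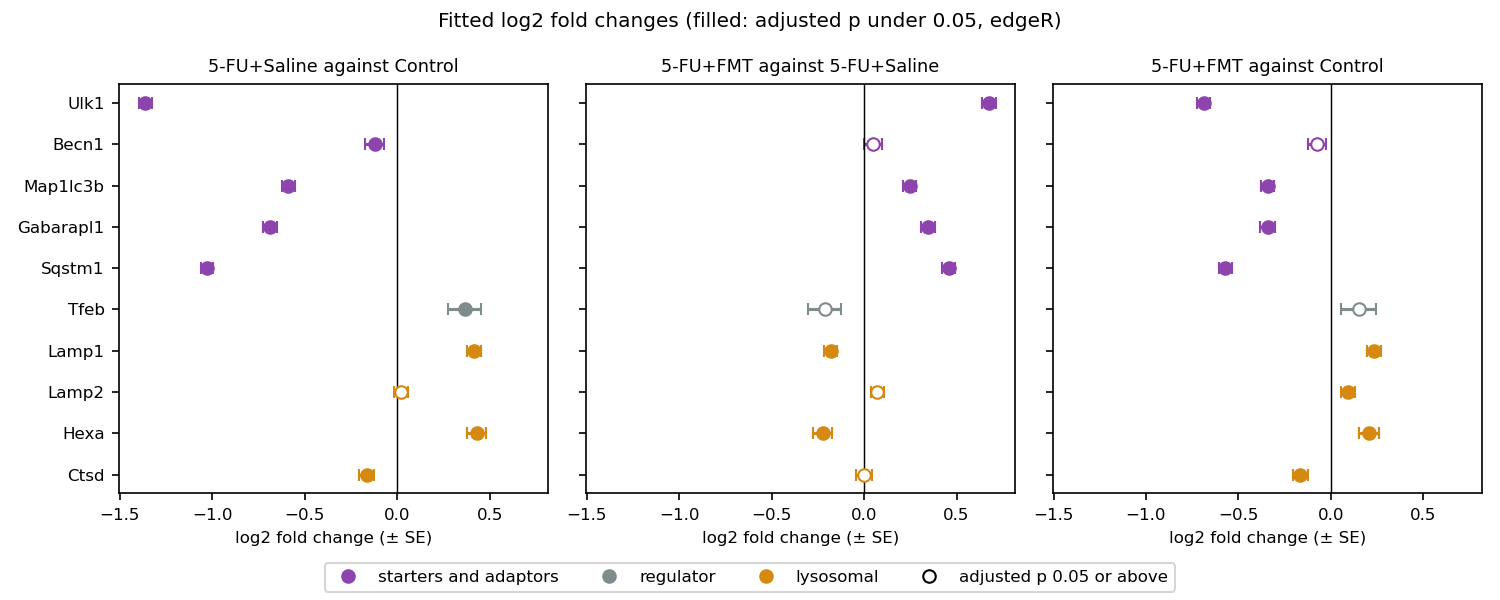
Fitted log2 fold change (x axis, bars are SE) of each gene (y axis) in the 3 comparisons, coloured by role, with open points where the adjusted p was 0.05 or above. After 5-FU and saline the starters and adaptors lie left of 0, from -1.36 for Ulk1 to -0.12 for Becn1, and Lamp1 and Hexa lie right of it.

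The contrast of roles was taken within each library as the mean log2 CPM of the 5 starters and adaptors minus that of the 4 lysosomal genes, a difference from which library scaling cancels. In Control the libraries gave 0.71, 0.65 and 0.72. Those of 5-FU+Saline gave -0.23, -0.28 and -0.21, whereas those of 5-FU+FMT gave 0.12, 0.23 and 0.25. Control was highest, 5-FU+Saline was lowest, and 5-FU+FMT lay between them with no overlap. CPM is not divided by gene length, so the sign of a value has no meaning of its own. Only differences between groups are read. No test was run on it, since the members were chosen with earlier results known.

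Most of the shift came from the starters and adaptors. Their summed level was 992 to 1026 CPM in Control, 571 to 574 CPM in 5-FU+Saline and 723 to 752 CPM in 5-FU+FMT. That of the lysosomal genes ran from 478 to 492, 529 to 552 and 505 to 527 CPM, a far smaller spread. Without Becn1 and Ctsd, the members with the largest share of exonic bases in common with another gene, the group means were 1.04, -0.16 and 0.38, in place of 0.69, -0.24 and 0.20. Both went least with their role, so the wider gap follows from leaving them out and is no check of the contrast. The ratio of Sqstm1 to Lamp1 in CPM was 1.92 to 2.12 in Control, 0.728 to 0.752 in 5-FU+Saline and 1.10 to 1.19 in 5-FU+FMT. For Ulk1 to Hexa it was 3.22 to 3.67, 0.952 to 1.06 and 1.74 to 2.03.

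**Figure D3:**
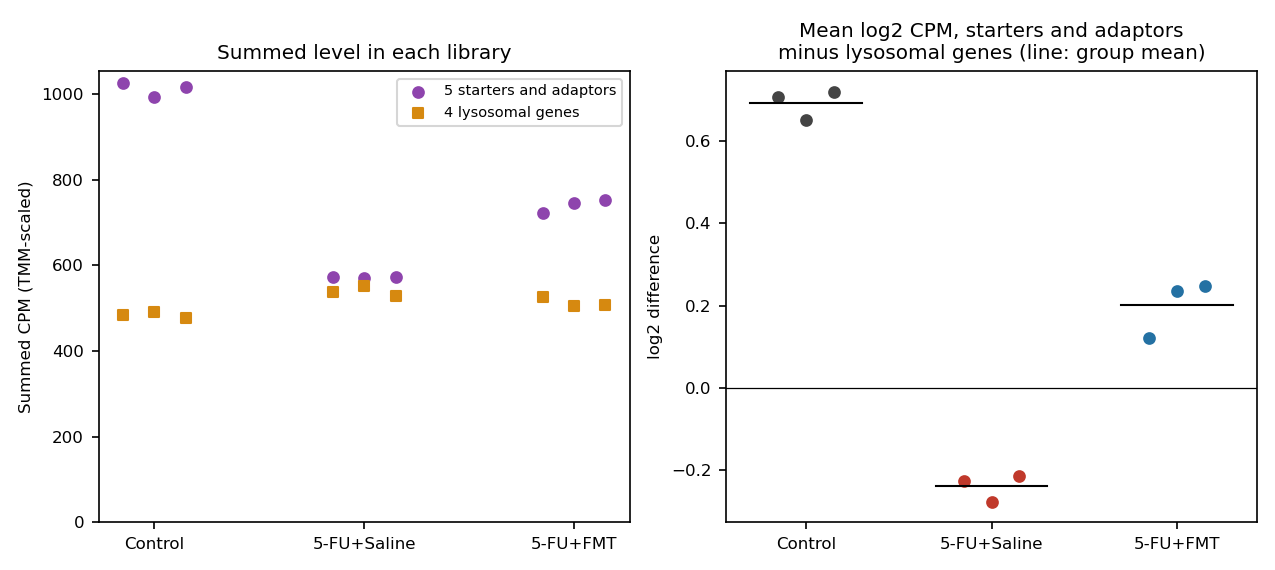
Left, summed CPM (y axis, from 0) of the 5 starters and adaptors (circles) and the 4 lysosomal genes (squares) in each library by group (x axis). Right, the difference of their mean log2 CPM with a line at each group mean (0.69, -0.24 and 0.20), highest in Control and lowest in 5-FU+Saline. Where 0 falls depends on gene lengths, which CPM does not take into account.

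Per length, the order of the genes also differed between groups. Levels were put on a per-length scale as TPM (counts divided by the deposited exonic length, then scaled to the library's sum) and are compared between genes within a group only. With no option for overlapping genes, reads in bases shared by 2 genes counted for neither, while the length includes those bases. They make up 43.9% of Becn1, 34.4% of Ctsd, 28.3% of Gabarapl1, 17.3% of Sqstm1, 12.8% of Hexa and 9.31% of Lamp1. The order below is not corrected for this. Places such as that of Lamp1 above Gabarapl1 and Ctsd are therefore not secure. In Control, Gabarapl1 led with 212 ± 1.22 TPM (SD, n = 3), followed by Sqstm1 (183 ± 6.38), Ctsd (136 ± 6.02), Lamp1 (115 ± 2.16), Ulk1 (91.2 ± 1.74) and Hexa (84.8 ± 5.63), with Map1lc3b, Lamp2, Becn1 and Tfeb below. Ulk1 and Hexa overlapped there. In 5-FU+Saline, Lamp1 led with 205 ± 2.67 TPM (SD, n = 3), ahead of Gabarapl1 (177 ± 3.52), Ctsd (162 ± 6.11), Hexa (154 ± 5.28) and Sqstm1 (121 ± 3.49), and Ulk1 (47.6 ± 0.886) had dropped behind Map1lc3b and overlapped Lamp2. Ctsd and Hexa overlapped there as well. In 5-FU+FMT, Gabarapl1 (204 ± 11.6 TPM), Lamp1 (164 ± 4.21), Sqstm1 (150.3 ± 2.57), Ctsd (147 ± 1.43) and Hexa (119 ± 8.03) led, with overlap between Sqstm1 and Ctsd and, lower down, between Map1lc3b and Ulk1. Tfeb was last in each group, with 8.09 ± 0.524, 14.0 ± 0.889 and 10.97 ± 0.540 TPM. TPM is not comparable across these groups because genes under 300 bases took 23.2 to 24.6% of it in Control, 4.24 to 4.54% in 5-FU+Saline and 12.1 to 13.6% in 5-FU+FMT.

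The genes whose centred log2 CPM profile over the 9 libraries lay nearest to a member, by root mean square distance, were named for Ulk1, Sqstm1 and Lamp1. Nearest to Ulk1 were H3f3b (distance 0.031; means of 2308, 897 and 1421 CPM in Control, 5-FU+Saline and 5-FU+FMT), Insig1 (0.037) and Arid5a (0.037). Nearest to Sqstm1 were Hyi (0.026), Neurl3 (0.029) and Pkd1 (0.035), and nearest to Lamp1 were Csrp1 (0.022), Ywhaq (0.023) and Galnt1 (0.025). Among the members themselves, Map1lc3b and Gabarapl1 were the closest pair (0.055), followed by Lamp1 and Hexa (0.076), and Ulk1 and Hexa were the farthest apart (0.74).

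The rest of the pathway was read from 10 further lists without the members. After 5-FU and saline, the 49 genes of the autophagy lists held 8 higher (16.3%) and 26 lower (53.1%), with a median log2 fold change of -0.14. The 56 genes of the lysosomal lists held 12 higher (21.4%) and 29 lower (51.8%), with a median of -0.13. Both lists thus had more lower calls than the 32.7% of all genes, and the rise of Lamp1 and Hexa was not the usual direction among lysosomal genes. The contrast between roles seen in the members did not appear between these wider lists, whose medians lay together.

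Between FMT and saline, 15 autophagy genes were higher and 5 lower (30.6% and 10.2%, median 0.08), and 16 lysosomal genes were higher and 8 lower (28.6% and 14.3%, median 0.07), beside 17.7% and 19.2% of all genes. Between FMT and Control, 3 autophagy genes were higher and 19 lower (6.12% and 38.8%, median -0.07), and 6 lysosomal genes were higher and 18 lower (10.7% and 32.1%, median -0.06), beside 25.0% and 21.6% of all genes. Without 5-FU+Saline replicate 3 the lysosomal genes higher with FMT than with saline numbered 10 in place of 16, and without 5-FU+Saline replicate 2 the autophagy genes lower there numbered 3 in place of 5. With upper-quartile scaling the genes higher with FMT than in Control numbered 1 for autophagy and 3 for the lysosome.

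Within autophagy, the genes of phagophore growth and lipid transfer (9 genes) leaned most to one side after 5-FU and saline, with 6 lower, none higher and a median of -0.34. Atg2a, which moves lipid into the growing membrane, fell from 182 ± 9.99 to 87.3 ± 3.49 CPM (SD, n = 3; adjusted p = 2.98e-36) and stood at 114 ± 1.90 CPM with FMT. Vmp1, a scramblase of the endoplasmic reticulum, was 1.40-fold higher with FMT than with saline (103 ± 3.56 against 73.6 ± 3.07 CPM, adjusted p = 8.74e-15). Of these 9 genes 5 were higher with FMT than with saline and none lower. The 11 initiation and nucleation genes were divided, with 2 higher and 4 lower. Rb1cc1, which encodes FIP200 of the ULK1 complex, fell from 96.6 ± 5.12 to 68.4 ± 1.30 CPM (adjusted p = 6.84e-15), and Uvrag, a partner of beclin 1, rose from 71.8 ± 3.16 to 84.8 ± 2.73 CPM (adjusted p = 1.96e-05).

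Of 13 genes of LC3 conjugation and other ATG8 proteins 8 were lower and 2 higher after 5-FU and saline. Map1lc3a, which encodes LC3A, fell 1.83-fold (adjusted p = 5.18e-10), whereas Atg3, the enzyme that passes ATG8 proteins to the membrane lipid, rose 1.26-fold (adjusted p = 1.14e-05). Cargo receptors (9 genes) held 5 lower and 1 higher. Calcoco1, a receptor for parts of the endoplasmic reticulum, fell from 82.5 ± 1.81 to 44.0 ± 2.21 CPM (adjusted p = 2.19e-24) and was 61.3 ± 2.80 CPM with FMT. Wdfy3, a large scaffold for protein aggregates, was the 1 that rose (adjusted p = 0.00113), a call lost with upper-quartile scaling (0.07). Fusion genes (7) were split at 3 higher and 3 lower, with Rab7, the small GTPase of late endosomes, rising from 158 ± 5.85 to 189 ± 2.62 CPM (adjusted p = 1.5e-09) and Tecpr1 falling from 88.4 ± 1.68 to 56.9 ± 2.48 CPM (adjusted p = 1.75e-18).

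Genes of the MiT/TFE family, mTORC1 and nutrient sensing (24 genes) held 11 higher and 9 lower after 5-FU and saline, with a median of 0.11. Rragd, a Rag GTPase that recruits mTORC1 to the lysosome, rose 7.57-fold from 0.900 ± 0.224 to 7.03 ± 0.733 CPM (adjusted p = 3.53e-16) and was 4.19 ± 1.51 CPM with FMT. Foxo3, a transcription factor that drives autophagy genes in blood stem cells, fell 1.37-fold (adjusted p = 1.39e-19) and was higher with FMT than with saline (adjusted p = 1.72e-06).

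Among lysosomal genes, the membrane list (10 genes) held 8 lower and 1 higher after 5-FU and saline. Npc1, the cholesterol exporter, fell from 76.6 ± 1.13 to 52.2 ± 2.56 CPM (adjusted p = 3.35e-14), and Scarb2, the carrier of glucocerebrosidase, was the 1 that rose (80.9 ± 5.03 to 92.2 ± 3.67 CPM, adjusted p = 0.00051). The proton pump (13 genes) was mixed at 4 higher and 6 lower, with Atp6v0c falling 1.40-fold and its partner Atp6v0d1 rising 1.28-fold (adjusted p = 3.04e-17 and 1.79e-07). Proteases (9 genes) held 2 higher and 3 lower. Lgmn, the protease legumain, which is abundant in macrophages, rose 3.19-fold from 6.17 ± 1.61 to 20.3 ± 2.10 CPM (adjusted p = 2.2e-19) and was 14.2 ± 1.41 CPM with FMT.

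The 24 glycan and lipid hydrolases, the list nearest to Hexa in function, held 12 lower and 5 higher after 5-FU and saline. Gla, the alpha-galactosidase, fell from 43.3 ± 1.74 to 16.4 ± 1.60 CPM (adjusted p = 4.9e-25) and was 25.8 ± 2.01 CPM with FMT. Gusb, the beta-glucuronidase, rose from 109 ± 4.70 to 158 ± 6.80 CPM (adjusted p = 1.18e-19) and was 135 ± 6.70 CPM with FMT. So hydrolases of the same compartment went both ways, and Hexa was on the side of Gusb.

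The E-box core was also counted over these lists. Of lysosomal genes with a promoter window 14 of 45 held CACGTG (31.1%), of autophagy genes 7 of 40 (17.5%), and of all genes with a window 2187 of 27025 (8.09%). After 5-FU and saline the 14 lysosomal genes with the core had 4 higher and 7 lower, with a median log2 fold change of -0.14, and the 31 without it had 5 higher and 18 lower, also with a median of -0.14.

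**Figure D4:**
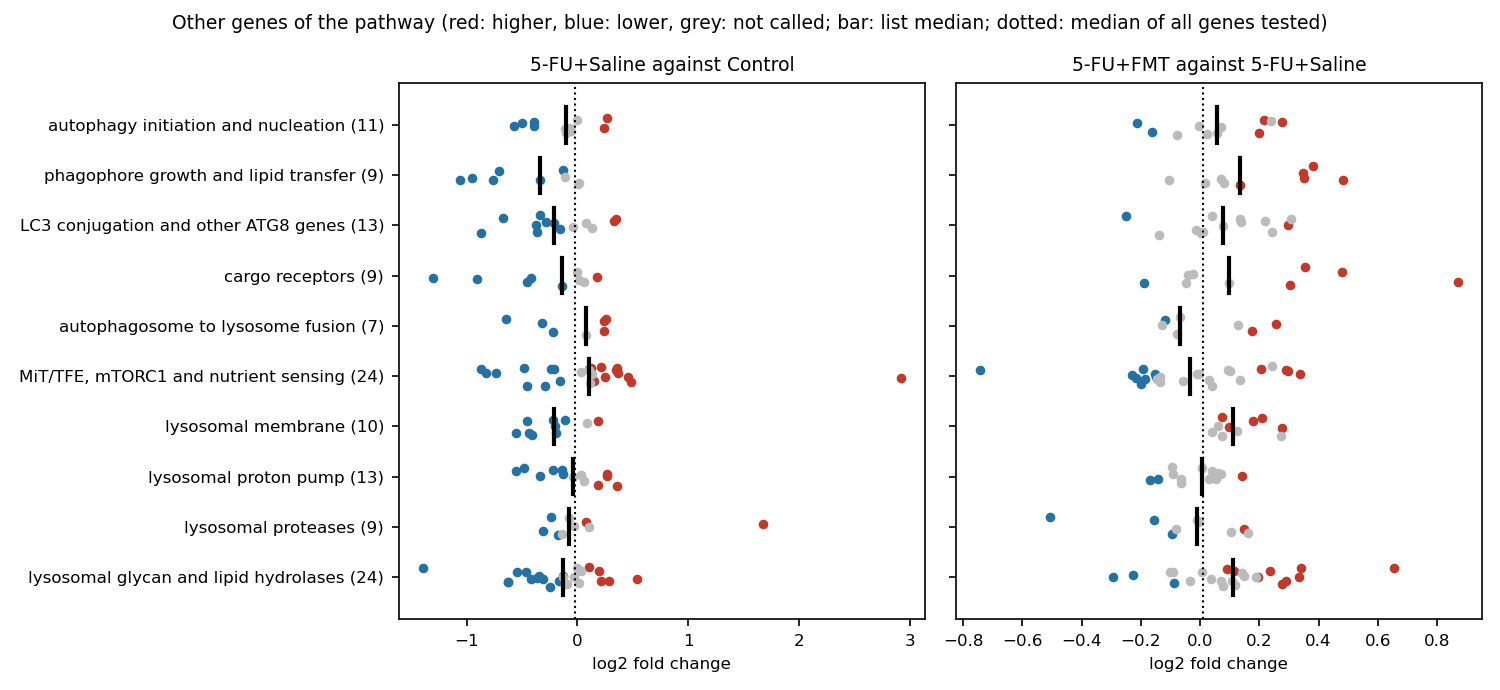
Log2 fold change (x axis) of each gene in the 10 further lists (y axis, number of genes in brackets) after 5-FU and saline against Control (left) and with FMT against saline (right), red for higher, blue for lower and grey for not called, with a bar at each list's median and a dotted line at the median of all genes tested (-0.021 and 0.0098). Phagophore growth has the lowest median on the left (-0.34) and genes of nutrient sensing the highest (0.11).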

How the data were processed

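RNA was sequenced in read pairs on an Illumina NovaSeq, from Trizol-isolated RNA and NEBNext Ultra II libraries, per the labels. The authors deposited a read count per gene for each library, made on mm10 with Trim Galore 0.6.5, HISAT2 2.2.1, SAMtools and featureCounts 2.0.1, per the submitters' processing notes. Per the file headers, pairs were counted over GENCODE M25 exons, with no option for strand, multiple mapping or overlapping genes.

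Everything else was computed from these counts. Symbols were found for 55141 of 56262 IDs. Libraries were grouped by title and compared at 11098031 to 19270976 counts. Libraries of a group differed by more than counting noise (chi-square per degree of freedom 2.15 to 2.57), and each was treated as its own sample. This spread cannot show whether they came from different mice or from the same RNA. The 3 groups were fitted together with filterByExpr, TMM and the quasi-likelihood F test of edgeR 4.0.16 (limma 3.58.1, R 4.3.3, package data.table in version 1.17.8), Benjamini-Hochberg adjusted over 16595 genes, called under 0.05. The script was tested on simulated data. The members, lists and rules were chosen with earlier results of these data known. The genes named are the 10 members, up to 1 called gene per list, direction and comparison with the smallest p, of which some are given, and the 3 nearest profiles of Ulk1, Sqstm1 and Lamp1. Alternatives were other scalings, filters, tools (DESeq2 1.42.0, limma-voom), fits and left-out libraries, and TPM scaling and a contrast without 2 members were added after seeing the data. Figures used Python 3.11.15 and matplotlib 3.10.9.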

Additional observations from a re-analysis of the deposited data

How the results depend on the processing

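Over 17 alternatives, members called higher or lower stayed within 1.5 times the reported counts, and 482 of 510 member fold changes kept their direction and their side of the threshold. The cause of the changes was not tested. Directions turned for values near 0. Lamp2 after 5-FU and saline was -0.057 with upper-quartile scaling and -0.034 with a stricter filter (at least 10 CPM in 3 libraries). Ctsd between FMT and saline was 0.010 with upper-quartile scaling, 0.020 with the stricter filter, 0.0025 with limma-voom, 0.0047 with the libraries of both groups alone, and 0.0062, 0.020 and 0.012 without 5-FU+Saline replicate 1, 5-FU+Saline replicate 2 and 5-FU+FMT replicate 3. TPM scaling moves the median of all genes to 0.40, -0.13 and 0.28. Among called values it turned Becn1 and Ctsd after 5-FU and saline (0.31 and 0.26, both below 0.40) and Ctsd with FMT against Control (0.11). Among values not called it turned Becn1 with FMT against saline and against Control, and Lamp2 with FMT against saline. Upper-quartile scaling moved the median of all genes after 5-FU and saline to -0.10. Without Becn1 and Ctsd, left out for shared exons, the role contrast was 1.04, -0.16 and 0.38. Leaving out 1 library gave 5174 to 5534 genes higher and 5124 to 5533 lower after 5-FU and saline.

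The replicate numbers showed no sign of pairing the libraries. Deviations of same-numbered libraries correlated at -0.0173 to 0.0194 over 9 pairs, and those of differently numbered libraries at -0.0296 to 0.0281 over 18 pairs. Spread within groups was not far above counting noise, so such low values cannot exclude a pairing. With the replicate number as a block, 5434 genes were higher and 5413 lower after 5-FU and saline, and member counts were as reported.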
